A study of Mus musculus with 6 samples.

Results

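The genes described here are 34 genes of the adipocyte and of lipid storage, listed by name for what their products do, out of 24061 genes in the count table of the series. The list was made with earlier results of these data known, so the shares of its genes called are descriptive. All 34 were in the table, and 32 had enough reads to be tested. They were measured in dorsal skin of female C57BL/6 mice, aged 8 to 14 weeks, by sequencing of total RNA from skin homogenates. The tested skin had received intradermal injections of 20 µg of recombinant IL-31 (rIL-31), an itch-associated cytokine made largely by T cells, in 50 µl of saline each day for 14 days, and the control skin had received 50 µl of saline alone on the same schedule. Each group held 3 libraries. The study states that 3 skin tissue samples of each group were sequenced. Replicates are numbered, but whether they are separate mice is not stated. The p-values thus measure the spread between these libraries, which may not be that between mice and may be partly technical. All mice were of 1 inbred strain without a transgene, and IL-31 was given as purified protein at a single dose, so the groups say nothing of dose.

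Mouse skin holds a layer of fat cells beneath the dermis, the dermal white adipose tissue, whose thickness follows the hair cycle and which lies above a thin sheet of muscle. A white adipocyte keeps its fat as triglyceride in a large droplet coated by perilipins. Fatty acids enter the cell after lipoprotein lipase frees them in the capillary bed, are joined to glycerol by a chain of acyltransferases, and leave again when lipases cut the triglyceride stepwise into fatty acids and glycerol. PPARγ and C/EBPα set and hold this program, and the mature cell secretes adiponectin, leptin and, in mice, resistin. Some of the genes have further sources in skin, since keratinocytes make Fabp5, sebaceous gland cells coat their own droplets with Plin2, and macrophages make Apoe, Lpl and Cd36. In a bulk sample fewer cells of a type and less RNA per cell cannot be told apart.

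Depth was alike in the groups, with 23122953 to 25552684 counts in the rIL-31 libraries and 21710679 to 23963685 in the saline libraries. The 34 genes took 0.668%, 0.662% and 0.603% of the counts in the rIL-31 libraries, against 0.609%, 0.618% and 0.567% in the saline libraries. Fabp5 alone gave 67474, 69076 and 59234 of their 154372, 160225 and 153970 counts with rIL-31. With saline it gave 64041, 61449 and 47618 of 145933, 142610 and 123002 counts, so these shares are not those of adipocyte genes alone. The rIL-31 libraries differed among themselves in how a gene's level followed the GC content of its transcript. Across genes, which are not independent replicates, the Spearman correlation of GC content with a gene's deviation from its mean over all libraries was 0.41, 0.28 and -0.27 in the rIL-31 libraries, against -0.12, -0.21 and -0.25 in the saline libraries. rIL-31 replicate 3 thus stood on the side of the saline libraries, and leaving it out took the number of all genes called from 739 higher and 610 lower to 2050 higher and 1968 lower. Values are therefore also given with offsets for GC content and transcript length where these change a call, and with and without that library. Levels are counts per 1000000 (CPM) on TMM-normalized library sizes, fold changes are log2 values of rIL-31 over saline with their standard error (SE), and a gene was called at a Benjamini-Hochberg false discovery rate (FDR) below 0.1 over all 16371 genes tested by edgeR's quasi-likelihood test.

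Most genes of the adipocyte program did not pass the test in rIL-31-treated skin, and the 3 that did encode enzymes or a coat protein of fat turnover. Mgll, Dgat1 and Plin2 rose, by 1.81-, 1.58- and 1.37-fold. Adiponectin, leptin, perilipin 1, Fabp4, Pparg and the hormone-sensitive lipase Lipe did not pass the test in either direction. Of the 32 genes tested, 3 (9.38%) were called higher, where 4.51% of all genes tested were called higher. None of the 32 was called lower by edgeR's test, where 3.73% of all genes were; 2 members had a lower level at an unadjusted p below 0.05, DESeq2 and edgeR's exact test each called 1 member lower, and limma-voom called 0. No member passed the rule that also asks for more than 2-fold. The median log2 fold change of the 32 genes was 0.092, against 0.0077 over all genes tested, and 0.021 against 0.0049 with the offsets. The SD between libraries of the members' median level was 0.080 on the log2 scale. Without rIL-31 replicate 3, 7 members were called higher and 3 lower, and without rIL-31 replicate 2, saline replicate 2 or saline replicate 3 only Mgll was called.

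**Figure D1:**
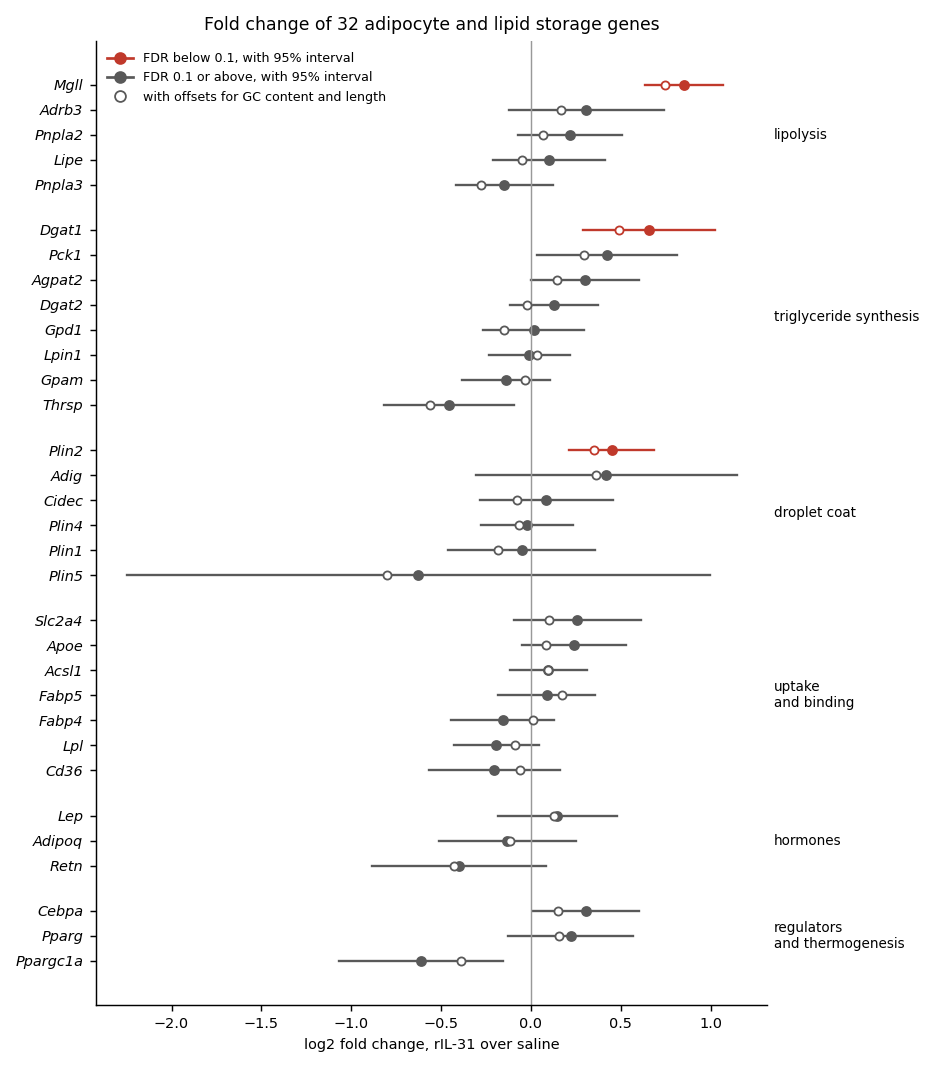
The log2 fold change of rIL-31 over saline is plotted for each of the 32 genes tested, grouped by role, with filled points and 95% intervals from the edgeR fit and open points from the fit with GC content and length offsets. Mgll at 0.85, Dgat1 at 0.66 and Plin2 at 0.45 are drawn in red as the 3 genes with an FDR below 0.1, and most other intervals cross 0.

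The lipolytic genes were led by Mgll, which encodes monoglyceride lipase, the enzyme of the last step of triglyceride breakdown and also the main enzyme that degrades an endocannabinoid monoglyceride. Mgll (Entrez gene 23945, GRCm38.p6 chromosome 6, 88724412 to 88828360) had 389, 383 and 408 CPM in the rIL-31 libraries, against 204, 223 and 228 CPM in the saline libraries. The groups did not overlap and each was tight. The mean was 394 ± 12.95 CPM in rIL-31-treated skin and 218 ± 12.7 CPM in saline-treated skin (SD, n = 3 each). Its log2 fold change was 0.85 (SE 0.099, 95% interval 0.63 to 1.07) at an FDR of 0.000833. The call stood in all 6 fits that left out 1 library, with fold changes of 0.80 to 0.88, and with the offsets (0.75, FDR 0.00264). An annotated non-coding RNA, Gm26588, lies within the same locus, and whether the counting used strand is not given in the sources used here.

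Start-site sequences of Mgll and Plin2, 2 of the genes that rose, were read from RefSeq, and both held the E-box hexamer CACGTG. This hexamer was among several motifs searched, and the others are given below. Dgat1 was not among the 26 members with a window and was not searched. The windows run from 250 bases before to 50 bases after the transcription start on GRCm38.p6, and are shown so that the 2 start regions can be compared, with the hexamer in capitals.
Mgll, chr6:88724162-88724461, plus strand: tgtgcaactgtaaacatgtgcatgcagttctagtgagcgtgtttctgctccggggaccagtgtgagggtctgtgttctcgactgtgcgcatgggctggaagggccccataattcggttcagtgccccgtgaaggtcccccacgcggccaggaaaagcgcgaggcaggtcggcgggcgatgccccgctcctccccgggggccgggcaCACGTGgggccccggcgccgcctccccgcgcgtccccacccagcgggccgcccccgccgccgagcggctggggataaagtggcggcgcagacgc
Plin2, chr4:86670010-86670309, minus strand: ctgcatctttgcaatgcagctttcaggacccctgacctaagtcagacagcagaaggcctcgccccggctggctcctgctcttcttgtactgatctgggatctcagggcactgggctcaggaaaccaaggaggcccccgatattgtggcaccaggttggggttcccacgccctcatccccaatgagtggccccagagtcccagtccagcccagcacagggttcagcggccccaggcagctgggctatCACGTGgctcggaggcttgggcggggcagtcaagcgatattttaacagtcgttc
The hexamer CACGTG, which reads the same on both strands, was in 7.15% of 32851 windows of this length and in 4 of the 36 windows of the members, those of Fgf21, Lipe, Mgll and Plin2. A second annotated start of Mgll had a window without it. The STAT-type motif TTCNNNGAA, searched on both strands, was in 8.30% of windows and in those of Adig and Lipe among the members. GGGCGG, also searched on both strands, was in 35.7% of windows and in 17 of the members' 36. A match is a run of letters and does not show that a factor binds.

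The other lipolytic genes did not pass the test. Pnpla2 encodes adipose triglyceride lipase, which makes the first cut. It had 45.8, 53.8 and 52.9 CPM in the rIL-31 libraries, against 49.0, 38.3 and 43.9 CPM in the saline libraries, with a log2 fold change of 0.22 (FDR 0.399). Lipe, the hormone-sensitive lipase that acts on diglyceride, had 53.1, 58.4 and 41.6 CPM with rIL-31, against 46.2, 51.5 and 45.1 CPM with saline (0.10, FDR 0.760). Both sets overlapped, and the 95% interval for Lipe reached from -0.21 to 0.41, so a change in Lipe of the size seen in Mgll lay outside it. Pnpla3, a droplet-bound relative of Pnpla2, had 28.3, 30.05 and 29.6 CPM in rIL-31-treated skin, against 33.9, 34.1 and 29.4 CPM in saline-treated skin (-0.15, FDR 0.561). Adrb3, the adrenergic receptor through which catecholamines start lipolysis in rodent fat, was near the low end at 6.81, 7.61 and 7.35 CPM with rIL-31, against 5.97, 6.20 and 5.41 CPM with saline. Its groups did not overlap, but its fold change of 0.31 had an interval of -0.12 to 0.74 and an FDR of 0.430. Adrb3 was 1 of 5 members, with Mgll, Plin2, Dgat1 and Agpat2, whose rIL-31 libraries all lay above the saline libraries, where 12.8% of all genes tested did so.

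**Figure D2:**
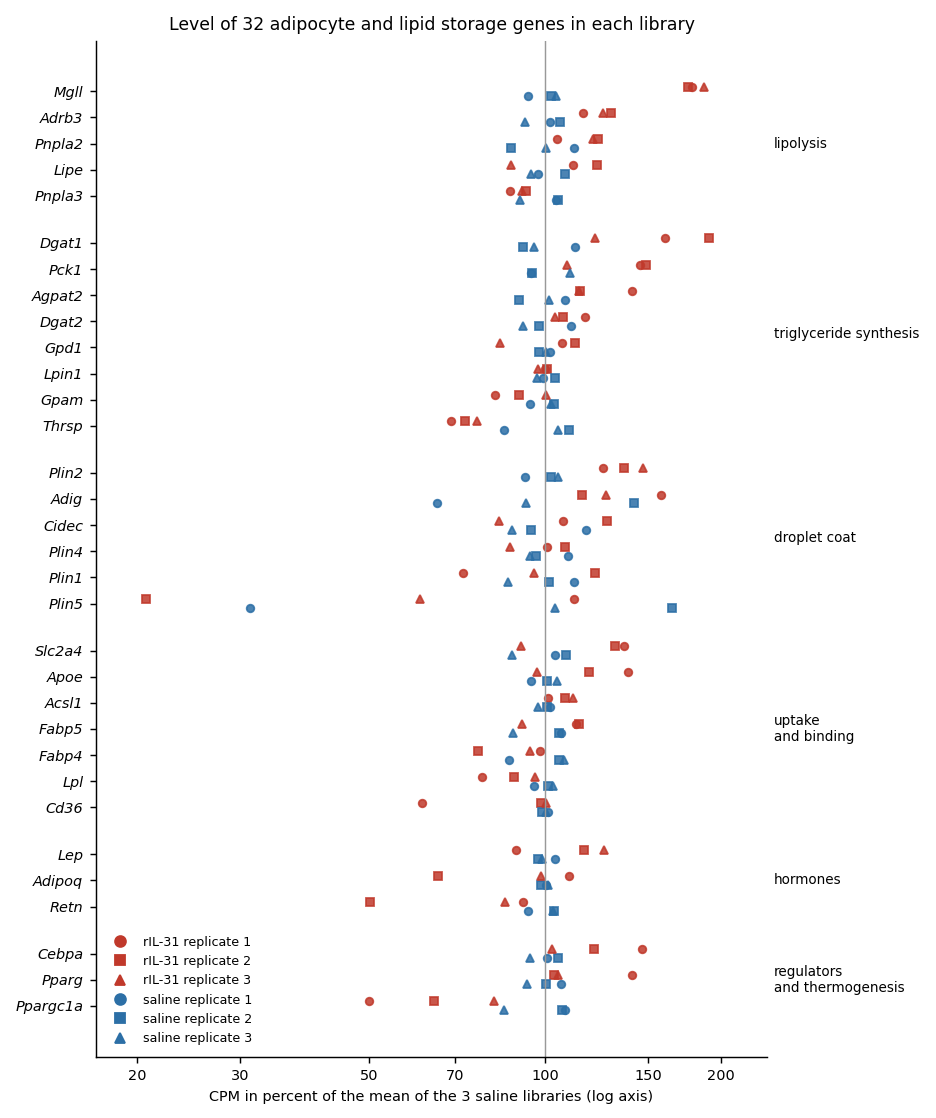
Each row is 1 of the 32 genes tested and each symbol 1 library, placed on a log axis by its CPM in percent of the mean of the 3 saline libraries, with rIL-31 libraries in red and saline libraries in blue. The rIL-31 symbols of Mgll sit together at 176% to 187%, while those of Adipoq, Retn and Cd36 are pulled apart by 1 library each.

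Among the genes of triglyceride synthesis, Dgat1 rose. It encodes 1 of the 2 enzymes that add the last fatty acid to diglyceride. Dgat1 (Entrez gene 13350, chromosome 15, 76502012 to 76512021) had 59.5, 70.7 and 45.0 CPM in the rIL-31 libraries, against 41.7, 33.9 and 35.4 CPM in the saline libraries. The groups did not overlap, but the lowest rIL-31 library was close to the highest saline library, and the rIL-31 group was the more scattered. The mean was 58.4 ± 12.9 CPM in rIL-31-treated skin and 37.0 ± 4.14 CPM in saline-treated skin (SD, n = 3 each). The log2 fold change was 0.66 (SE 0.17, 95% interval 0.29 to 1.03) at an FDR of 0.04999, and 0.49 (FDR 0.0695) with the offsets. Leaving out single libraries gave 0.48 to 0.81 with FDRs of up to 0.241, and the call was kept in 2 of the 6 fits. Dgat2, which does the same reaction with an unrelated protein, had 108, 99.4 and 96.4 CPM with rIL-31, against 103, 90.3 and 84.8 CPM with saline, and was not called (0.13, FDR 0.580). Its interval of -0.12 to 0.37 overlapped that of Dgat1, and whether the 2 genes' fold changes differed was not tested.

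The earlier enzymes of the pathway gave no call. Gpam, the mitochondrial acyltransferase that adds the first fatty acid, had 72.8, 79.7 and 88.9 CPM in the rIL-31 libraries, against 83.4, 91.6 and 90.7 CPM in the saline libraries (-0.14, FDR 0.551). Agpat2, the next acyltransferase, which is mutated in a human congenital lipodystrophy, had 40.8, 33.3 and 33.2 CPM with rIL-31, against 31.3, 26.2 and 29.5 CPM with saline. Its groups were apart, at a fold change of 0.30 with an unadjusted p of 0.049 and an FDR of 0.252. Lpin1, the phosphatidate phosphatase that makes diglyceride, had the fold change nearest to 0 of the 32 genes (-0.0096), at 59.0, 59.5 and 57.4 CPM with rIL-31, against 58.4, 61.4 and 57.2 CPM with saline (95% interval -0.24 to 0.22). The glycerol backbone comes from glycolysis through Gpd1 or from glyceroneogenesis through Pck1. Gpd1 had 66.3, 69.7 and 51.9 CPM in rIL-31-treated skin, against 63.2, 60.5 and 62.2 CPM in saline-treated skin (0.016, FDR 0.965). Pck1 had 15.4, 15.8 and 11.6 CPM with rIL-31, against 10.1, 10.1 and 11.8 CPM with saline, so that its lowest rIL-31 library lay within the saline range (0.42, unadjusted p 0.035, FDR 0.210). That lowest library was rIL-31 replicate 3, and without it Pck1 was called higher (0.55, FDR 0.0406). Thrsp, a nuclear protein tied to lipogenesis and driven by thyroid hormone, had 10.1, 10.7 and 11.2 CPM in the rIL-31 libraries, against 12.4, 16.1 and 15.4 CPM in the saline libraries. Each rIL-31 library of Thrsp was below each saline library, at -0.46 (SE 0.16, FDR 0.149), and the gene passed the threshold with the offsets (-0.56, FDR 0.0749) and without rIL-31 replicate 3.

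**Figure D3:**
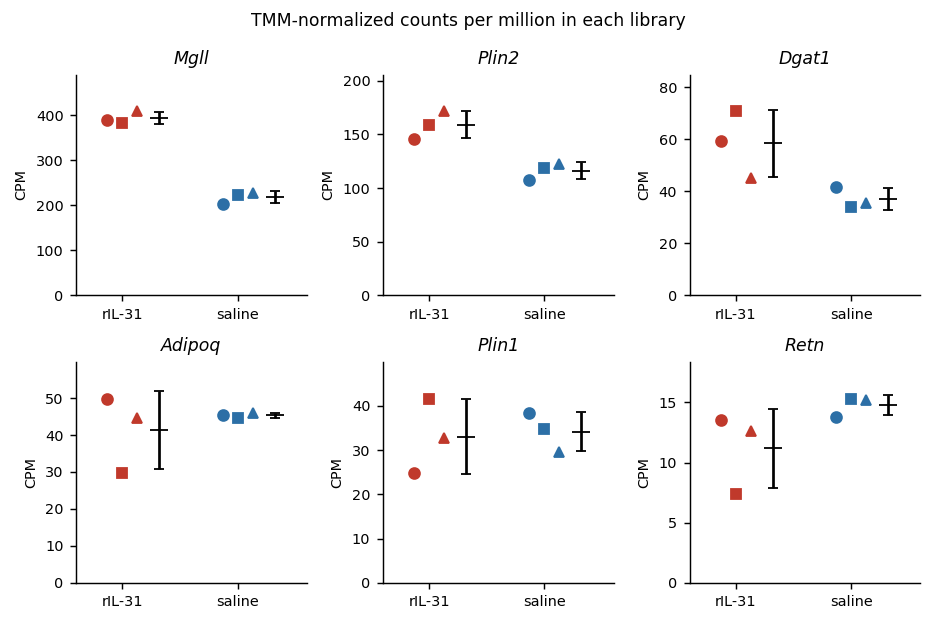
CPM is plotted for 6 genes, each panel with the 3 rIL-31 libraries in red to the left of the 3 saline libraries in blue and with the mean and SD of each group in black, on axes that start at 0. Mgll, Plin2 and Dgat1 show groups that do not overlap, whereas Adipoq and Retn have 1 low rIL-31 library (29.7 and 7.40 CPM) and Plin1 has overlapping groups.

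Of the 6 droplet coat genes, Plin2 rose and 5 were not called. Plin2, the perilipin found on droplets of nearly every cell type, (Entrez gene 11520, chromosome 4, 86626910 to 86670217) had 146, 159 and 171 CPM in the rIL-31 libraries, against 108, 119 and 122 CPM in the saline libraries. The groups were clear of each other. The mean was 159 ± 12.7 CPM in rIL-31-treated skin and 116 ± 7.82 CPM in saline-treated skin (SD, n = 3 each), a log2 fold change of 0.45 (SE 0.11, 95% interval 0.21 to 0.69) at an FDR of 0.0403. With the offsets it was 0.35 at an FDR of 0.0929. Single libraries left out gave 0.39 to 0.50 with FDRs of up to 0.192, and the call was kept in 2 of 6 fits. An annotated pseudogene, Gm12551, overlaps the locus and was not in the count table.

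Plin1, the perilipin of the adipocyte droplet that holds back the lipases, had 24.7, 41.6 and 32.7 CPM in the rIL-31 libraries, against 38.3, 34.7 and 29.6 CPM in the saline libraries. The saline libraries lay inside the rIL-31 range, and the fold change was -0.050 (95% interval -0.46 to 0.36, FDR 0.916). Cidec, which fuses droplets into 1 large droplet, had 60.2, 71.8 and 46.9 CPM with rIL-31, against 66.1, 53.2 and 49.3 CPM with saline (0.085, FDR 0.836). Plin4, a long perilipin of white fat, had 147, 157 and 127 CPM in rIL-31-treated skin, against 159, 140 and 137 CPM in saline-treated skin (-0.021, FDR 0.944). None of these 3 adipocyte coat genes had groups apart. Adig, a small membrane protein of fat cells, had 5.08, 3.72 and 4.08 CPM with rIL-31, against 2.10, 4.55 and 2.98 CPM with saline (0.42, FDR 0.540). Plin5, the perilipin of oxidative tissues such as heart and muscle, was barely present, with 1.35, 0.251 and 0.739 CPM in the rIL-31 libraries, against 0.378, 1.995 and 1.26 CPM in the saline libraries. At that level its interval was -2.25 to 0.99, which covers a 2-fold lower level.

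The 7 genes of uptake and binding gave no call in either direction. Lpl, the lipase that frees fatty acids from lipoproteins, had 473, 537 and 584 CPM in the rIL-31 libraries, against 582, 615 and 626 CPM in the saline libraries. Only the highest rIL-31 library reached the saline range (-0.19, 95% interval -0.43 to 0.045, FDR 0.360), and Lpl was called lower without rIL-31 replicate 3. Cd36, the fatty acid translocase, had 332, 532 and 542 CPM with rIL-31, against 545, 533 and 542 CPM with saline. A single library, rIL-31 replicate 1, was thus at 61.5% of the saline mean while the other 5 lay within a few percent of each other (-0.20, FDR 0.555). Fabp4, the fatty acid carrier of adipocytes and macrophages, had 211, 165 and 203 CPM in rIL-31-treated skin, against 187, 228 and 232 CPM in saline-treated skin (-0.16, FDR 0.560). Fabp5, the epidermal counterpart, was far more abundant at 2856, 2887 and 2304 CPM with rIL-31, against 2691, 2665 and 2220 CPM with saline (0.087, FDR 0.760). In both carriers the groups overlapped. Acsl1, which activates fatty acids with coenzyme A, had 192, 205 and 211 CPM in the rIL-31 libraries, against 193, 191 and 185 CPM in the saline libraries (0.097, FDR 0.643). Slc2a4, the insulin-responsive glucose transporter, had 77.2, 74.5 and 51.5 CPM with rIL-31, against 58.8, 61.5 and 49.7 CPM with saline (0.26, FDR 0.420). Apoe, a lipoprotein component that cells secrete with cholesterol, had 738, 633 and 517 CPM in rIL-31-treated skin, against 503, 537 and 558 CPM in saline-treated skin (0.24, FDR 0.352). For both Slc2a4 and Apoe rIL-31 replicates 1 and 2 exceeded all saline libraries and replicate 3 did not, and both were called higher when replicate 3 was left out.

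Hormones of the fat cell were not called. Adipoq (adiponectin, Entrez gene 11450, chromosome 16, 23146536 to 23157968), which only mature adipocytes express at high level, had 49.9, 29.7 and 44.6 CPM in the rIL-31 libraries, against 45.5, 44.7 and 45.9 CPM in the saline libraries. The saline libraries were almost identical and 1 rIL-31 library was at 65.5% of their mean, so that the means were 41.4 ± 10.5 CPM with rIL-31 and 45.3 ± 0.611 CPM with saline (SD, n = 3 each). The log2 fold change was -0.13 (SE 0.17, FDR 0.738), and its 95% interval of -0.51 to 0.25 does not hold a 2-fold change. Lep, leptin, had 22.3, 29.1 and 31.6 CPM in rIL-31-treated skin, against 26.0, 24.3 and 24.7 CPM in saline-treated skin (0.15, 95% interval -0.18 to 0.48, FDR 0.650). Retn, the mouse adipocyte hormone resistin, had 13.5, 7.40 and 12.6 CPM with rIL-31, against 13.8, 15.3 and 15.2 CPM with saline. Its groups were apart only narrowly, and the library that was low for Adipoq was low here too (-0.40, SE 0.22, FDR 0.347). Retn, Ppargc1a and Thrsp were the 3 members whose rIL-31 libraries all lay below the saline libraries, where 12.9% of all genes tested did so. Fgf21, a fasting hormone made mainly by liver, had 7, 0 and 1 counts in the rIL-31 libraries, against 0, 1 and 0 counts in the saline libraries, and was not tested.

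The regulators showed no call either. Pparg, the receptor that drives fat cell differentiation, had 26.7, 19.6 and 19.9 CPM in the rIL-31 libraries, against 20.2, 19.0 and 17.6 CPM in the saline libraries (0.22, 95% interval -0.13 to 0.57, FDR 0.492). Cebpa, its partner, which keratinocytes also express, had 195, 162 and 137 CPM with rIL-31, against 134, 140 and 126 CPM with saline (0.31, unadjusted p 0.043, FDR 0.236). Without rIL-31 replicate 3 Cebpa was called higher (0.42, FDR 0.0203), whereas Pparg was not. In both genes rIL-31 replicate 1 was the highest of the 6 libraries. Ppargc1a, the coactivator of mitochondrial genes, which brown fat and muscle share, had 7.15, 9.24 and 11.7 CPM in the rIL-31 libraries, against 15.5, 15.3 and 12.2 CPM in the saline libraries. The groups did not overlap, and the fold change of -0.61 (SE 0.21, 95% interval -1.07 to -0.16) had an FDR of 0.127. DESeq2 called it lower (FDR 0.0794), as did the fit without rIL-31 replicate 3, whereas the offsets gave -0.39 at an FDR of 0.242. Ucp1, the uncoupling protein of brown fat, had 0, 0 and 0 counts with rIL-31, against 6, 0 and 2 counts with saline, and was not tested. In the rIL-31 libraries 0 counts allow a level of up to 0.117 to 0.127 CPM, taking 3 counts as the limit, which covers counting error only.

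Levels can be set side by side between genes only per length of transcript, as CPM per kb. On that scale Fabp5 was the highest member, with 2717 CPM per kb in rIL-31-treated skin and 2559 in saline-treated skin, followed by Apoe with 447 in rIL-31-treated skin and 379 in saline-treated skin. Fabp4 had 216 CPM per kb with rIL-31 and 241 with saline, and Adipoq had 32.04 with rIL-31 and 35.1 with saline. Mgll had 98.7 CPM per kb with rIL-31 and 54.6 with saline, and stood above Plin2, at 84.1, in rIL-31-treated skin but below it, at 61.6, in saline-treated skin. Among the 5 lipolytic genes Mgll was the highest in both groups, Pnpla2 having 19.4 CPM per kb with rIL-31 and 16.7 with saline and Lipe 14.1 with rIL-31 and 13.2 with saline. Ppargc1a (1.45 with rIL-31, 2.21 with saline), Adrb3 (2.60 with rIL-31, 2.10 with saline) and Plin5 (0.393 with rIL-31, 0.610 with saline) were at the low end of the tested members. Reads that map to several near-identical copies may have been split or dropped by the counting, so the levels of members with close copies are uncertain.

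**Figure D4:**
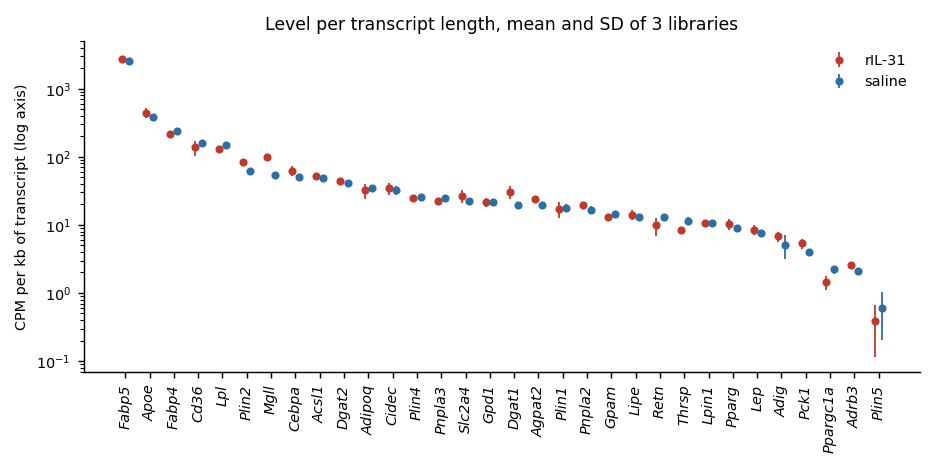
The mean CPM per kb of transcript of each of the 32 tested genes is shown on a log axis with the SD of 3 libraries, rIL-31 in red to the left of saline in blue, ordered by the saline level. Levels run from Fabp5, at 2717 and 2559 CPM per kb, down to Plin5 below 1, and the points of Mgll (98.7 with rIL-31, 54.6 with saline) are apart by far more than their SDs.

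The members did not move as a block within the rIL-31 group. rIL-31 replicate 2 was the lowest of its group for Adipoq, Retn (50.1% of the saline mean) and Fabp4 (76.6%), yet the highest for Plin1 (122%), Cidec (128%), Lipe (123%) and Dgat1 (191%). rIL-31 replicate 1 was the lowest for Cd36, Plin1 (72.3%), Lpl (77.9%) and Ppargc1a (50.0%), yet the highest for Cebpa (147%), Pparg (141%) and Apoe (138%). The median SD of log2 CPM within a group, over the 30 members with a mean of at least 5 CPM, was 0.21 in the rIL-31 libraries and 0.10 in the saline libraries. The wider scatter was not particular to fat genes, since the same medians over all 12559 genes at that level were 0.20 and 0.12. The members were also split by transcript GC content. The 16 members with a GC content of at least 54.9% had median levels of 114%, 122% and 96.4% of the saline mean in the rIL-31 libraries. In the saline libraries they had 104%, 101% and 94.5%. The other 16 had 99.0%, 99.7% and 99.4% with rIL-31, against 97.4%, 103% and 101% with saline. The part of GC content in single members was addressed only by the offsets.

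Of a wider list of 71 further fat genes, 69 were tested, with 5 called higher (7.25%) and 3 called lower (4.35%), beside 4.51% and 3.73% of all genes. The remaining 61 were not called. This list too was chosen with earlier results of these data known, so its shares are descriptive. The median log2 fold change was 0.14, against 0.0077 over all genes tested, and 0.068 against 0.0049 with the offsets. By role, fatty acid synthesis and esterification had 2 of 14 tested called higher and 2 lower, hormone receptors and insulin signaling 2 of 12 higher and 1 lower, and fatty acid uptake and transport 1 of 12 higher. Droplet and lipolysis regulators (9 tested), secreted and marker genes (11) and transcription factors (11) had no call in either direction by edgeR's test, with 1, 1 and 3 genes at an unadjusted p below 0.05.

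Slc27a4, a fatty acid transport protein that the epidermis needs, rose to 159, 144 and 131 CPM in the rIL-31 libraries, against 108, 91.6 and 105 CPM in the saline libraries (0.51, SE 0.11, FDR 0.0305). Scd1, the desaturase that sebaceous glands express at very high level, had 3514, 3819 and 4167 CPM with rIL-31, against 2861, 2882 and 2778 CPM with saline (0.43, SE 0.10, FDR 0.0346). Acss2, which makes acetyl-CoA from acetate, had 51.8, 58.6 and 57.3 CPM with rIL-31, against 38.6, 41.7 and 43.9 CPM with saline (0.43, FDR 0.0569). Irs2, an adaptor of the insulin receptor, had 23.4, 26.4 and 27.8 CPM with rIL-31, against 18.1, 19.5 and 19.9 CPM with saline (0.44, FDR 0.0917). None of these genes had groups that overlapped.

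Npr3, the clearance receptor for natriuretic peptides, which stimulate lipolysis in human fat, fell to 10.03, 9.69 and 15.3 CPM in the rIL-31 libraries, against 20.2, 22.4 and 23.9 CPM in the saline libraries (-0.92, SE 0.19, FDR 0.0219). Acaca, which makes malonyl-CoA for fatty acid synthesis, had 92.2, 108 and 111 CPM with rIL-31, against 138, 137 and 144 CPM with saline (-0.43, SE 0.11, FDR 0.0463). Lpin2, a relative of Lpin1, had 36.3, 38.3 and 42.8 CPM with rIL-31, against 48.2, 51.6 and 55.5 CPM with saline (-0.40, FDR 0.0860). The groups of all 3 were apart. With the offsets Acaca (-0.26, FDR 0.129), Lpin2 (FDR 0.113), Acss2 (FDR 0.133) and Irs2 (FDR 0.133) were no longer called. Each of the 8 wider genes lost its call in at least 3 of the 6 fits that left out a library, and none of the wider genes was called without saline replicate 2 or without saline replicate 3. Without rIL-31 replicate 3, 16 wider genes were called higher and 10 lower. Cfd, the fat cell protease adipsin, had 244, 206 and 158 CPM in rIL-31-treated skin, against 204, 216 and 222 CPM in saline-treated skin and was not called (-0.080, FDR 0.823).

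Markers of other cells in the piece of skin were counted beside the fat genes, and no listed marker was at 0 counts in all libraries. Of all genes tested, 4.51% were called higher and 3.73% lower. Keratinocyte markers, which identify the tissue as skin, had 4 of 8 called higher. They summed to 13312 to 17403 CPM in the rIL-31 libraries, against 9164 to 9887 CPM in the saline libraries. Krt1 of the suprabasal epidermis rose by 1.21 and Krt10 by 0.71 on the log2 scale. Only 5 of the 8 had a positive fold change, the lowest being -0.18, and 1 had every rIL-31 library below the saline libraries. Sebaceous gland markers had 4 of 10 called higher and summed to 1929 to 2265 CPM with rIL-31, against 1548 to 1722 CPM with saline, led by Elovl3 (1.21) and Fa2h (0.92). Of these 10 markers, 7 had a positive fold change and the lowest was -0.45. By edgeR's test 1 was lower at an unadjusted p below 0.05. Skeletal muscle markers had 3 of 12 called lower, among them Myh4 (-1.31) and Pvalb (-0.78), and summed to 6128 to 8268 CPM with rIL-31, against 7916 to 8551 CPM with saline. Macrophage markers had 1 of 10 called higher (Itgam, 0.55) and 4 of 10 with a positive fold change. They summed to 1610 to 2014 CPM with rIL-31, against 1932 to 2049 CPM with saline. Of the 8 brown fat markers tested, 2 were called higher, Elovl3, which is also on the sebaceous list, and Dio2 (0.77), while Ucp1, the defining gene, was at 0 counts in every rIL-31 library. That list summed to 205 to 220.5 CPM with rIL-31, against 108 to 117 CPM with saline, and Elovl3 alone made up 156, 143 and 137 CPM of it with rIL-31, against 64.4, 62.9 and 61.4 CPM with saline. Markers of the growing hair follicle, whose cycle the dermal fat follows, had 1 of 12 called lower (Msx2, -0.64). They summed to 15341 to 19966 CPM with rIL-31, against 18395 to 20878 CPM with saline. The list was mixed, with a median log2 fold change of -0.032. By edgeR's test 2 of the 12 were higher and 3 lower at an unadjusted p below 0.05. Endothelial and fibroblast markers had 0 of 8 called each by edgeR's test, with 0 of 8 at an unadjusted p below 0.05. Endothelial markers summed to 193 to 262 CPM with rIL-31, against 198 to 226 CPM with saline, and fibroblast markers to 8096 to 8655 CPM with rIL-31, against 8176 to 8449 CPM with saline. The part of the keratinocyte and sebaceous markers in the rise of Mgll, Plin2, Dgat1 and Scd1 was not tested. Nor was the part of skeletal muscle in the levels of Plin5 and Ppargc1a, which muscle also expresses.

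**Figure D5:**
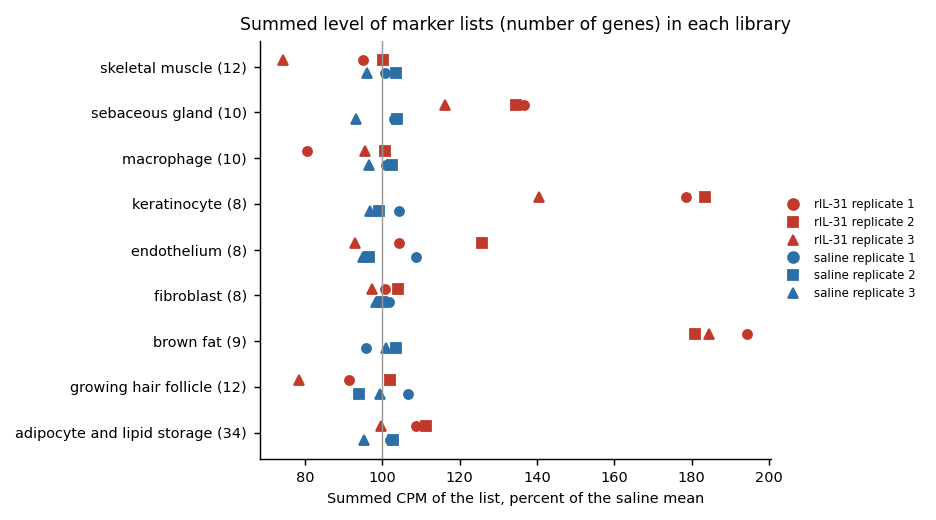
For each list the summed CPM of its genes in each library is drawn in percent of the mean of the 3 saline libraries, rIL-31 in red above saline in blue, with the number of genes on the list in brackets. Keratinocyte, sebaceous gland and brown fat lists have every rIL-31 library above the saline libraries, and the 34 adipocyte and lipid storage genes have overlapping groups. Fabp5, which keratinocytes make, gave 2856, 2887 and 2304 CPM of that sum of 6534, 6695 and 5988 CPM with rIL-31. With saline it gave 2691, 2665 and 2220 of 6131, 6186 and 5735 CPM. The overlap is thus that of a sum in which Fabp5 weighs heavily, not of adipocyte genes alone.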

How the data were processed

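RNA-Seq was done on dorsal skin, with 3 rIL-31 and 3 saline libraries grouped by the labels. The authors deposited 1 table of raw counts, in whole reads for each gene. The submitters' processing notes name bcl2fastq, CASAVA 1.8, TopHat, DESeq and mm10, without roles. Not given in the sources used here are the counting program, the annotation, the use of strand and how reads with several matches were treated. No other column of values per sample was in the table.

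These counts were not altered. Entrez numbers identify the genes, and RefSeq for GRCm38.p6 gave their names and positions, where 85 of 24061 numbers had no name (0.913% to 2.84% of counts in rIL-31 libraries, 4.74% to 6.03% in saline libraries). They were kept in the library sizes, since each has a gene number. Genes were kept by filterByExpr with a minimum count of 10, which left 16371. Counts were scaled by TMM and tested for treatment, with no covariate, by the quasi-likelihood method of edgeR 4.0.16 in R 4.3.3, called at an FDR below 0.1. The study's rule of p below 0.05, FDR below 0.1 and more than 2-fold was counted beside it. Transcript length and GC content came from the longest transcript with a RefSeq mRNA, which 94.2% of tested genes and all 34 members had. Start-site windows from RefSeq (GRCm38.p6) matched 26 of the 34 members. The procedure was tested on simulated data.

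The members and lists were chosen with earlier results of these data known. Named genes are all 34 members, up to 5 called genes in each direction of the wider list (1 of them is not reported here), Cfd, and up to 2 genes of smallest p per marker list. Alternatives were edgeR's exact test on RLE factors, DESeq2 1.42.0, limma-voom (limma 3.58.1), upper-quartile scaling, no filter, library size only, 10 counts in every library, the replicate block, loess offsets for GC content and length, other thresholds, and each library left out. No 2 libraries were alike enough to be 1 library, since the lowest chi-square per degree of freedom was 8.98.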

Additional observations from a re-analysis of the deposited data

How the results depend on the processing

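Plin5, Ucp1 and Fgf21 were each below 2 CPM in every library, and the filter on low counts left Ucp1 and Fgf21 untested. The count of members called higher stayed at 3 under DESeq2, the exact test, limma-voom, the other normalizations and filters, the offsets and an FDR below 0.05, and was 0 with more than 2-fold. Members called lower numbered 0, but 1 under DESeq2, the exact test, the replicate block, the offsets, and the offsets with the block. The gene was Ppargc1a under DESeq2, the exact test and the block alone, but Thrsp in both fits with the offsets. Leaving out single libraries gave 1 to 7 members higher and 0 to 3 lower. The lowest count of members higher (1) came without rIL-31 replicate 2, saline replicate 2 or saline replicate 3, and the highest counts without rIL-31 replicate 3.

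Wider fat genes called higher numbered 5, but 8 under DESeq2, 3 with upper-quartile normalization, 9 with the offsets and the replicate block, 2 at an FDR below 0.05 and 0 with more than 2-fold. Those called lower numbered 3, but 7 under DESeq2, 5 under the exact test, 5 with upper-quartile normalization, 7 with the replicate block, 1 with the offsets, 5 with both and 0 with more than 2-fold. Leaving out single libraries gave 0 to 16 higher and 0 to 10 lower, with both highest counts without rIL-31 replicate 3 and both counts at 0 without saline replicate 2 or 3. The causes were not tested.

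Whether the replicate numbers pair the libraries is not stated, and the values do not settle it. Same-numbered deviations correlated at 0.11, -0.042 and 0.32, against -0.33 to 0.25 for differently numbered libraries of the 2 groups. The block moved the counts of lower genes given above, and those of all genes, by more than 1.5 times. All genes called with the block were 1177 higher and 1096 lower, against 739 and 610 without it.

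Of 11 named genes with a call, 10 lost it in at least 1 alternative fit at the same FDR threshold and Mgll in none, but Mgll too was below 2-fold. Of 30 without a call, 7 gained one in at least 1 alternative fit and 10 changed sign without a call. With the offsets, alone and with the block, Fabp4 was at 0.011 and 0.0029, Cidec at -0.076 and -0.078, Lipe at -0.048 and -0.048, Dgat2 at -0.022 and -0.021, Lpin1 at 0.031 and 0.031 and Gpd1 at -0.15 and -0.15. Library size only gave Lpin1 0.0074 and upper-quartile normalization gave Gpd1 -0.0068. Single libraries left out gave Adipoq -0.29 to 0.047, Plin1 -0.26 to 0.12, Plin4 -0.10 to 0.060, Cidec -0.082 to 0.23, Lipe -0.022 to 0.23, Lpin1 -0.033 to 0.018, Gpd1 -0.081 to 0.13 and Cfd -0.24 to 0.070.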
